A study of Danio rerio with 4 samples.

Results

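The genes described here encode proteins of pre-mRNA splicing and related RNA-binding proteins. They were chosen by name alone: every gene in the authors' table whose symbol begins with snrp, sf3a, sf3b, srsf, sfrs, prpf, u2af, lsm and a number, hnrnp, hnrp, rbm and a number, ptbp, nova, rbfox or celf. That gave 150 genes of 26355, with 397 of 46226 transcripts. The expression test covered 148 of the genes and 388 of the transcripts. Both genes left out were close to absent: the single CELF3 transcript had counts of 0 and 6 with the id2a morpholino and 7 and 10 in controls, and no RBM11 transcript exceeded 9 counts in a library. Names starting with rbm cover a large family defined by an RNA-recognition motif, and several of its members work outside splicing.

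RNA came from retinae dissected from zebrafish embryos at 48 hours post fertilization, in 2 libraries from embryos treated with the id2a morpholino and 2 libraries from controls treated with the Id2aMM morpholino. Morpholinos are synthetic antisense molecules that pair with an RNA and hinder its translation or its splicing, and embryos of both groups received one. The libraries were poly-A selected from 1 microgram of total RNA per condition. The replicates are called biological by the submitters, the labels give neither the strain nor the number of embryos per library, and the groups differ in the morpholino alone, as far as the labels say. The comparison asks which transcripts differ when the retina develops with the id2a morpholino.

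Splicing removes introns from a new transcript. The core spliceosome is built from small nuclear RNAs bound by rings of Sm or LSm proteins, from proteins particular to the U1 and U2 particles, and from Prp proteins of the U4/U6.U5 particle and the catalytic steps. SR proteins and hnRNP proteins bind exons and introns and shift the choice of splice sites, often in opposite directions. Nova, Rbfox and Celf proteins are regulators that, in mammals, set many of the exon choices of neurons, although some family members are expressed widely.

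Depth was 42980929 and 54710062 counts in the id2a morpholino libraries and 50230438 and 53652256 counts in the control libraries. The id2a transcript itself was not lower with the morpholino: the transcript with the smallest p was at 41.6 and 36.8 CPM (counts scaled to library depth, on the TMM scale), against 32.7 and 20.8 CPM in controls (log2 fold change 0.55 with SE 0.27, edgeR adjusted p = 0.231). All 9 retina and eye field marker genes were detected, with a summed level of 809.4 and 779.4 CPM with the id2a morpholino and 753.3 and 680.9 CPM in controls. Several marker lists of other cell types moved between the groups, whereas the muscle and leukocyte sums overlapped. Here fell and rose mean an edgeR adjusted p under 0.05, which held for 5.70% and 2.37% of all tested genes. Among 13 postmitotic neuron genes 10 fell and 0 rose, and none was at 0 in any library. Their sum was 260.0 and 352.6 CPM with the id2a morpholino, against 984.7 and 684.9 CPM in controls. Among 13 genes of replicating progenitors 2 rose and 0 fell, with a sum of 5625 and 6175 CPM with the id2a morpholino, against 3322 and 4396 CPM in controls. Lens genes summed to 1006 and 567.8 CPM with the id2a morpholino, against 144.5 and 246.7 CPM in controls (5 of 7 rose), epidermal genes to 298.2 and 111.4 CPM with the id2a morpholino, against 917.8 and 923.4 CPM in controls (4 of 5 fell), and photoreceptor genes to 37.9 and 180.2 CPM with the id2a morpholino, against 565.8 and 402.3 CPM in controls (5 of 10 fell, with gnat1, opn1sw1, pde6h and rho at 0 in at least 1 library). Erythrocyte genes summed to 193.0 and 155.1 CPM with the id2a morpholino, against 126.0 and 101.8 CPM in controls (1 of 4 rose). Muscle genes summed to 17.7 and 22.1 CPM with the id2a morpholino, against 20.1 and 22.9 CPM in controls (0 of 3 passed). Leukocyte genes summed to 53.8 and 45.7 CPM with the id2a morpholino, against 55.1 and 39.6 CPM in controls (1 of 6 fell). In bulk RNA, fewer cells of a type and less RNA per cell cannot be told apart.

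A gene was called changed if at least 1 of its transcripts passed an edgeR adjusted p of 0.05, with the adjustment over all 37012 tested transcripts. By that rule 7 of the 148 tested splicing genes fell with the id2a morpholino, 0 rose and 141 did not pass. The 7 are 4.73% of the members, against 5.70% of all 20875 tested genes that fell, 2.37% that rose and 8.06% that did either. By genes, the share of lower calls in the whole collection was thus near the background. The rule gives a gene with more transcripts more chances to be called. Per transcript, 10 of the 388 tested for members were lower and 0 higher, against larger shares of all tested transcripts, 4.97% and 2.06%. Before adjustment, at p under 0.05, 20 members (against 12.9% of all genes) were higher and 17 (against 17.9%) lower. DESeq2 called 3 higher and 9 lower, against 6.23% and 9.64% of all genes. A looser adjusted threshold of 0.10 in edgeR also gave counts of 3 and 9, against 6.79% and 11.5% of all genes. With counts summed per gene, 3 of the 7 passed, namely rbfox1, celf5 and rbfox2. The median log2 fold change over the members, each taken at its most abundant transcript, was -0.01, against -0.04 over all tested genes. Within the collection the called genes were uneven: 4 of the 7 were rbfox or celf genes, and 0 belonged to the core spliceosome.

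The nova, rbfox and celf genes had the lowest median of the 9 roles. Of 13 tested nova, rbfox and celf genes, 4 fell (30.8%, against 5.70% of all genes), 0 rose (against 2.37%) and 9 did not pass. Taken at the most abundant transcript of each gene, all 13 fitted log2 fold changes were below 0, at a median of -1.21. For 10 of the 13 (76.9%) both id2a morpholino libraries lay below both controls, against 32.3% of all tested genes. The 13 include both RBFOX3 gene models, which share nearly all their reads and were counted separately. Without the filter on low counts, all 14 genes entered the fit and all 14 were below 0, at a median of -1.30.

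**Figure D1:**
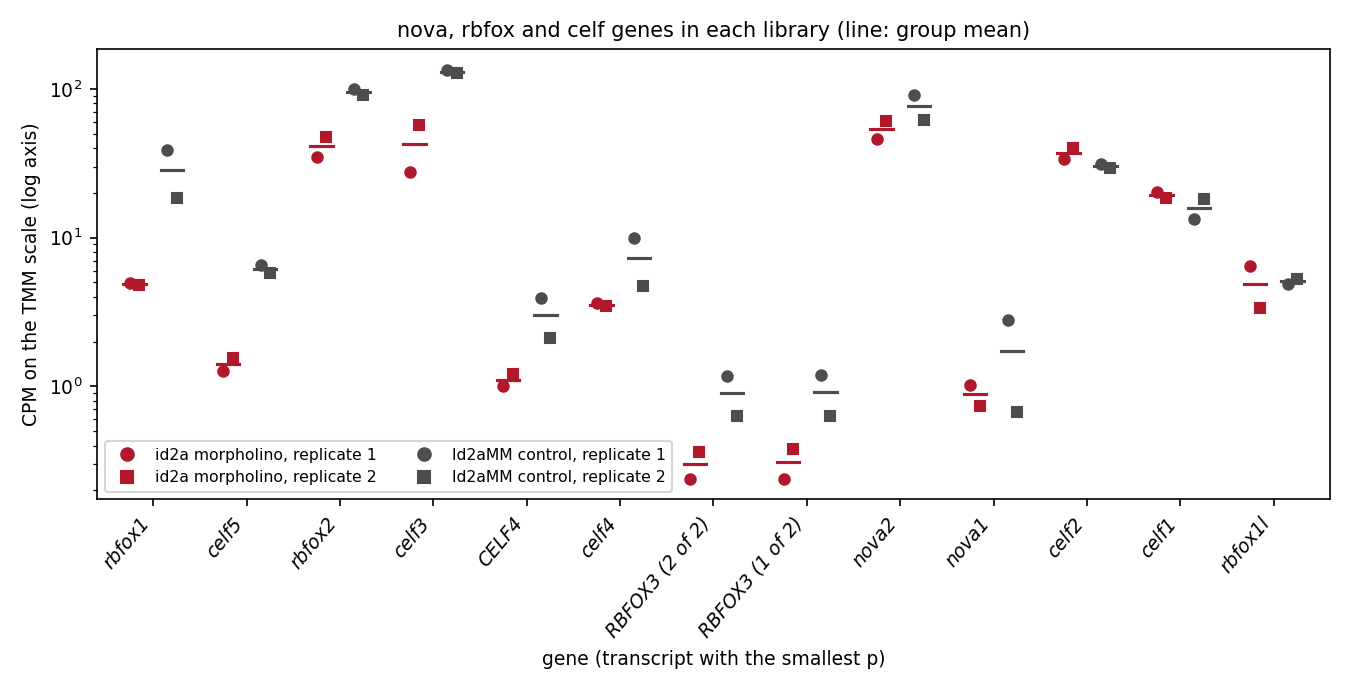
Level of each nova, rbfox and celf gene in each library (vertical log axis, CPM on the TMM scale), at the transcript with the smallest p, with the id2a morpholino libraries left of the Id2aMM controls and a line at each group mean. rbfox1, celf5, rbfox2 and celf3, at the left, have both id2a morpholino libraries well below both controls, whereas nova1 and rbfox1l overlap. At the transcript drawn, celf1 and celf2 have both id2a morpholino libraries above both controls.

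Among the called genes rbfox1 had the largest log2 fold change. This gene, on chromosome 3, encodes an RNA-binding protein that recognises a short UGCAUG element beside regulated exons, a role best studied in mammalian brain and muscle. It was at 4.96 and 4.77 CPM with the id2a morpholino, against 38.5 and 18.6 CPM in controls. The id2a morpholino libraries were nearly equal, control replicate 1 was well above control replicate 2, and the groups did not overlap. The mean was 4.86 ± 0.138 CPM with the id2a morpholino and 28.5 ± 14.1 CPM in controls (SD, n = 2 each), and the log2 fold change was -2.55 (with SE 0.37, edgeR adjusted p = 0.0209). A second rbfox1 transcript, with counts of 0 and 4 with the id2a morpholino and 81 and 37 in controls, also fell (edgeR adjusted p = 0.0364).

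rbfox2 on chromosome 6, a more widely expressed member of the same family, was at 34.6 and 47.5 CPM with the id2a morpholino, against 99.4 and 90.2 CPM in controls. Its log2 fold change was -1.21 (with SE 0.24, edgeR adjusted p = 0.0312), with no overlap between the groups. RBFOX3, whose mammalian product is the neuronal nuclear antigen NeuN, is present as a pair of gene models that share nearly all their reads and cannot be told apart. Both were scarce: RBFOX3 (2 of 2) was at 0.239 and 0.362 CPM with the id2a morpholino, against 1.17 and 0.633 CPM in controls, and did not pass (log2 fold change -1.57 with SE 0.62, edgeR adjusted p = 0.147). RBFOX3 (1 of 2) had a log2 fold change of -1.54 (edgeR adjusted p = 0.154). rbfox1l on chromosome 16, known in zebrafish from muscle, had values near those of controls. It was at 6.42 and 3.35 CPM with the id2a morpholino, against 4.89 and 5.25 CPM in controls, and the groups overlapped (log2 fold change -0.06 with SE 0.35, edgeR adjusted p = 0.937).

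celf3 and celf5 fell as well. Celf proteins bind GU-rich RNA and act on splicing and, in the cytoplasm, on translation and decay of mRNA. celf3, on chromosome 19, whose mammalian homolog is largely confined to the nervous system, was at 27.6 and 57.3 CPM with the id2a morpholino, against 134.3 and 126.7 CPM in controls. Replicate 1 was the lower of the id2a morpholino libraries, and both were below both controls (log2 fold change -1.62 with SE 0.34, edgeR adjusted p = 0.0355). celf5, on chromosome 22, was much less abundant, at 1.26 and 1.56 CPM with the id2a morpholino, against 6.53 and 5.77 CPM in controls. Its log2 fold change was -2.12 (with SE 0.31, edgeR adjusted p = 0.0212), and its other transcript also fell (log2 fold change -1.88, edgeR adjusted p = 0.0259).

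The pair of celf4 genes did not pass. CELF4 on chromosome 2 was at 1.00 and 1.21 CPM with the id2a morpholino, against 3.90 and 2.098 CPM in controls (log2 fold change -1.43 with SE 0.43, edgeR adjusted p = 0.0802, DESeq2 adjusted p = 0.0434). celf4 on chromosome 21 was at 3.63 and 3.44 CPM with the id2a morpholino, against 9.87 and 4.72 CPM in controls (log2 fold change -1.04 with SE 0.37, edgeR adjusted p = 0.121). In both genes the groups were separate and control replicate 1 was the highest library.

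celf1 and celf2, the members with the broadest expression in other vertebrates, had values near those of controls. The most abundant celf2 transcript was at 352.3 and 377.0 CPM with the id2a morpholino, against 377.4 and 421.2 CPM in controls (log2 fold change -0.13, edgeR adjusted p = 0.724). The celf2 transcript with the smallest p pointed the other way, at 33.9 and 40.1 CPM with the id2a morpholino, against 31.0 and 29.2 CPM in controls (log2 fold change 0.30 with SE 0.22, edgeR adjusted p = 0.423). celf1 behaved alike: its most abundant transcript had a log2 fold change of -0.14 with overlapping groups, and its transcript with the smallest p was at 20.1 and 18.4 CPM with the id2a morpholino, against 13.2 and 18.2 CPM in controls (log2 fold change 0.30 with SE 0.25, edgeR adjusted p = 0.493). These are multi-transcript genes whose reads hit several transcripts, so single-transcript values are uncertain.

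The nova genes encode regulators that bind short pyrimidine-rich motifs and were first described as neuronal antigens in human paraneoplastic disease. nova2, on chromosome 15, was at 45.7 and 60.9 CPM with the id2a morpholino, against 91.1 and 62.1 CPM in controls. Control replicate 2 lay just above the higher id2a morpholino library, and the gene did not pass (log2 fold change -0.52 with SE 0.27, edgeR adjusted p = 0.249). nova1, on chromosome 5, was at 1.03 and 0.743 CPM with the id2a morpholino, against 2.81 and 0.669 CPM in controls. Its negative log2 fold change of -0.98 (with SE 0.66, edgeR adjusted p = 0.383) rested on control replicate 1, and without that library it was 0.42.

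The neuronal calls depended on the controls. Without control replicate 1, which leaves 1 control library, all edgeR calls were lost, those of splicing genes and those of all other genes alike. Without control replicate 2 only rbfox1 passed, and without id2a morpholino replicate 1 rbfox1, celf5 and celf3 did. Without id2a morpholino replicate 2 all 4 did, together with srsf5b, PTBP3 and rbm38. The sizes moved less: leaving out each library in turn gave log2 fold changes of -2.98 to -1.91 for rbfox1, -2.28 to -1.96 for celf5, -1.45 to -0.98 for rbfox2 and -2.24 to -1.17 for celf3. The fall of the neuron markers given above ran beside these changes, and its part in them was not tested.

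In the core spliceosome no gene passed the test. Of its 45 genes 0 rose, 0 fell and 45 did not pass in edgeR or in DESeq2. In edgeR 2.37% of all genes rose and 5.70% fell, and in DESeq2 6.23% and 9.64%. Before adjustment, at p under 0.05, edgeR had 8 higher (against 12.9% of all genes) and 0 lower (against 17.9%). At the same unadjusted cut DESeq2 had 11 higher and 0 lower, against 6143 of all 20875 genes in either direction. The median log2 fold change was 0.10, with 30 of 45 above 0 (against 47.7% of all genes). The range was -0.34 (sf3b5) to 0.76 (PRPF6 (1 of 2)). Gene models with nearly equal levels in every library, such as prpf4 and PRPF4 (2 of 2) at 0.55 each, were counted separately. Both id2a morpholino libraries lay above both controls for 18 genes (40%, against 29.8% of all tested genes) and below both for 5 (11.1%, against 32.3%). Taken library by library over all 14 neuronal regulators and all 45 core genes, with no filter on level, the neuronal median minus the core median was -1.03 and -0.74 in the id2a morpholino libraries, against 0.31 and -0.31 in the controls. These values are on the log2(CPM + 0.5) scale, which understates changes of low genes, and relative to the mean of the 2 controls, so the control values are equal and opposite by construction.

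**Figure D2:**
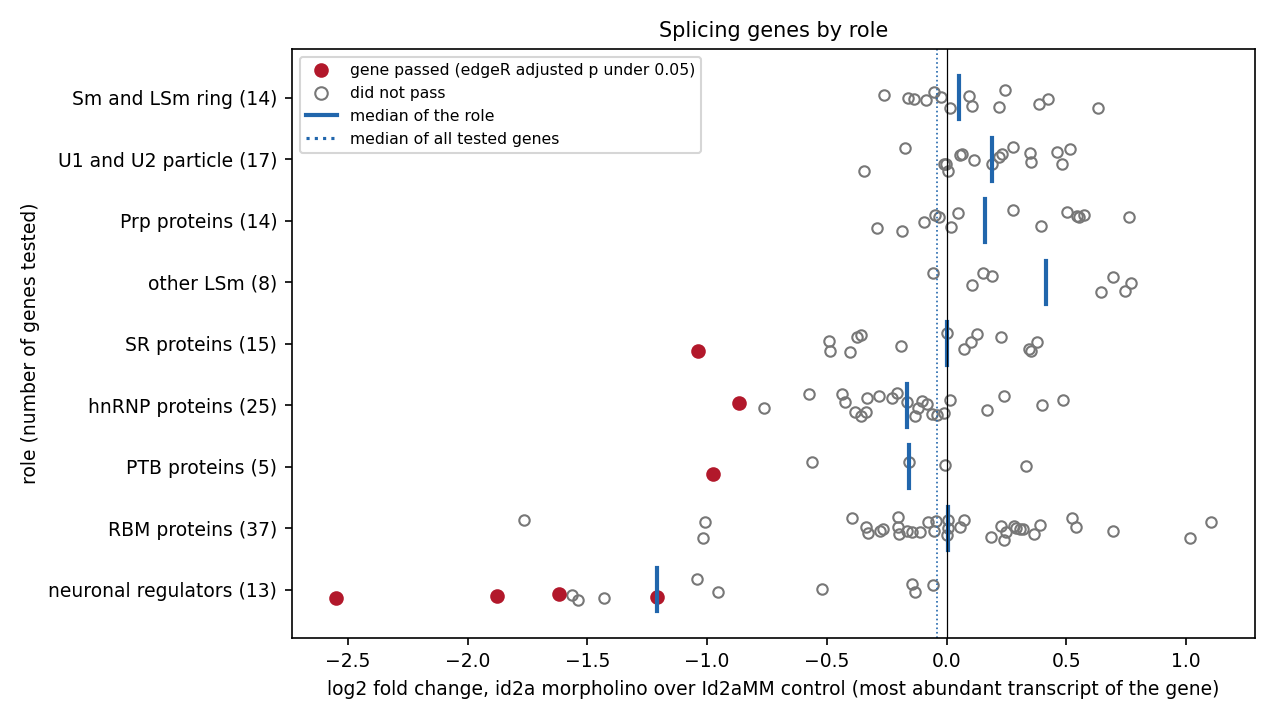
Log2 fold change of each tested gene, id2a morpholino over Id2aMM control, at its most abundant transcript (horizontal axis), by role, with filled points for genes that passed, a bar at the role's median and a dotted line at the median of all tested genes. The neuronal regulators lie wholly below 0 around a median of -1.21, whereas the 3 core roles have medians of 0.05, 0.19 and 0.16.

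Among the 14 genes of the Sm and LSm rings, which encircle the small nuclear RNAs, the median was 0.05 and 8 were above 0. snrpb, which encodes the SmB protein, was at 196.8 and 197.4 CPM with the id2a morpholino, against 117.3 and 137.4 CPM in controls. The groups were separate, and the gene did not pass (log2 fold change 0.63 with SE 0.21, edgeR adjusted p = 0.101). snrpd1, encoding SmD1, was at 20.8 and 22.6 CPM with the id2a morpholino, against 12.9 and 14.7 CPM in controls at its transcript with the smallest p (log2 fold change 0.65 with SE 0.23, edgeR adjusted p = 0.117), and its most abundant transcript had a log2 fold change of 0.38. snrpf, the most abundant ring gene per length, was at 81.3 and 81.4 CPM with the id2a morpholino, against 92.6 and 86.1 CPM in controls (log2 fold change -0.14 with SE 0.20, edgeR adjusted p = 0.711). Genes of these rings had values on both sides of 0.

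The 17 genes of the U1 and U2 particles had a median of 0.19, with 13 above 0. sf3a1, a U2 protein needed for branch-site recognition, was at 22.0 and 19.8 CPM with the id2a morpholino, against 13.5 and 14.9 CPM in controls (log2 fold change 0.56 with SE 0.23, edgeR adjusted p = 0.164). snrpc, encoding a U1 protein that steadies pairing with the 5′ splice site, showed different values in its transcripts. The one with the smallest p was at 15.0 and 16.1 CPM with the id2a morpholino, against 9.38 and 11.6 CPM in controls (log2 fold change 0.57 with SE 0.24, edgeR adjusted p = 0.179), and the abundant one had a log2 fold change of -0.0035 with overlapping groups. u2af1, which reads the AG at the 3′ splice site, had overlapping groups at 180.6 and 166.8 CPM with the id2a morpholino, against 176.5 and 173.3 CPM in controls (log2 fold change -0.0098 with SE 0.20, edgeR adjusted p = 0.982).

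The 14 Prp genes had a median of 0.16, with 9 above 0. Both id2a morpholino libraries were above both controls for 7 (50%, against 29.8% of all tested genes). They were below both for 3 (21.4%, against 32.3%). Here too, prpf4 and PRPF4 (2 of 2) were counted separately. PRPF6 (1 of 2), a scaffold of the U4/U6.U5 particle, was at 48.5 and 43.0 CPM with the id2a morpholino, against 32.0 and 21.9 CPM in controls (log2 fold change 0.76 with SE 0.26, edgeR adjusted p = 0.103). prpf38b was at 22.3 and 23.1 CPM with the id2a morpholino, against 12.7 and 16.1 CPM in controls (log2 fold change 0.66 with SE 0.24, edgeR adjusted p = 0.127). Both were separate between the groups and neither passed.

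The 8 LSm genes not placed, by symbol, in the role of Sm and LSm rings do not belong to the spliceosome proper. LSm14 proteins, for instance, act in translational repression and LSm11 in histone mRNA processing. None of the 8 passed in edgeR, and 5 were higher at p under 0.05 before adjustment (against 12.9% of all genes). At a median of 0.42, 7 were above 0 (against 47.7%). Both counts include LSM11 (1 of 2) and lsm11, at log2 fold changes of 0.77 and 0.75. Their levels were nearly equal in every library, so they may count the same reads. LSM12 (2 of 2) was at 36.1 and 30.2 CPM with the id2a morpholino, against 20.3 and 22.1 CPM in controls (log2 fold change 0.64 with SE 0.23, edgeR adjusted p = 0.117). Its relative lsm12 was at 98.9 and 76.8 CPM with the id2a morpholino, against 85.1 and 78.2 CPM in controls, with overlapping groups (log2 fold change 0.11 with SE 0.22, edgeR adjusted p = 0.801). lsm14aa was at 21.3 and 20.5 CPM with the id2a morpholino, against 14.2 and 12.0 CPM in controls at its transcript with the smallest p (log2 fold change 0.67 with SE 0.23, edgeR adjusted p = 0.112), and its most abundant transcript had a log2 fold change of 0.19.

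Among 15 SR protein genes 1 fell (6.67%, against 5.70% of all genes), 0 rose (against 2.37%) and 14 did not pass. Their median was 0.0033. The one that fell was srsf5b on chromosome 20, at 85.7 and 127.0 CPM with the id2a morpholino, against 222.8 and 213.9 CPM in controls. Its log2 fold change was -1.04 (with SE 0.25, edgeR adjusted p = 0.0476), and leaving out a library gave -1.35 to -0.76 and kept the call in 1 of 4 fits. Its duplicate srsf5a, the most abundant SR gene per length, was at 266.8 and 366.8 CPM with the id2a morpholino, against 340.0 and 490.2 CPM in controls, with overlapping groups (log2 fold change -0.39 with SE 0.27, edgeR adjusted p = 0.384). Whether the duplicates differ in their change was not tested. srsf11, which encodes a less conventional SR-related protein, was the SR gene nearest the threshold on the higher side, at 40.2 and 47.2 CPM with the id2a morpholino, against 23.4 and 27.7 CPM in controls (log2 fold change 0.78 with SE 0.23, edgeR adjusted p = 0.0763), but its most abundant transcript had a log2 fold change of 0.34 (edgeR adjusted p = 0.381). DESeq2 called srsf11 higher (adjusted p = 0.0247).

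Zebrafish keep duplicate copies of several of these genes. Pairs were matched by symbol alone, as the same stem ending in a and b. Of 9 tested pairs, the fitted log2 fold changes lay on opposite sides of 0 in 7 and on the same side in 2, srsf5 and u2af2. The opposite pairs include prpf38a and prpf38b (-0.29 and 0.57), which are separate genes rather than duplicates. Except for srsf5b, none of these genes passed, and the differences within pairs were not tested. At the most abundant transcripts they were 0.35 for srsf3a and -0.49 for srsf3b, 0.38 for srsf6a and -0.19 for srsf6b, and 0.0033 for srsf1a and -0.49 for srsf1b. Beyond the SR genes they were 0.33 for ptbp1a and -0.0073 for ptbp1b, and 0.05 for rbm39a and -0.27 for rbm39b. u2af2a and u2af2b were at 0.23 and 0.05. The tally of pairs was added after the values were seen.

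**Figure D3:**
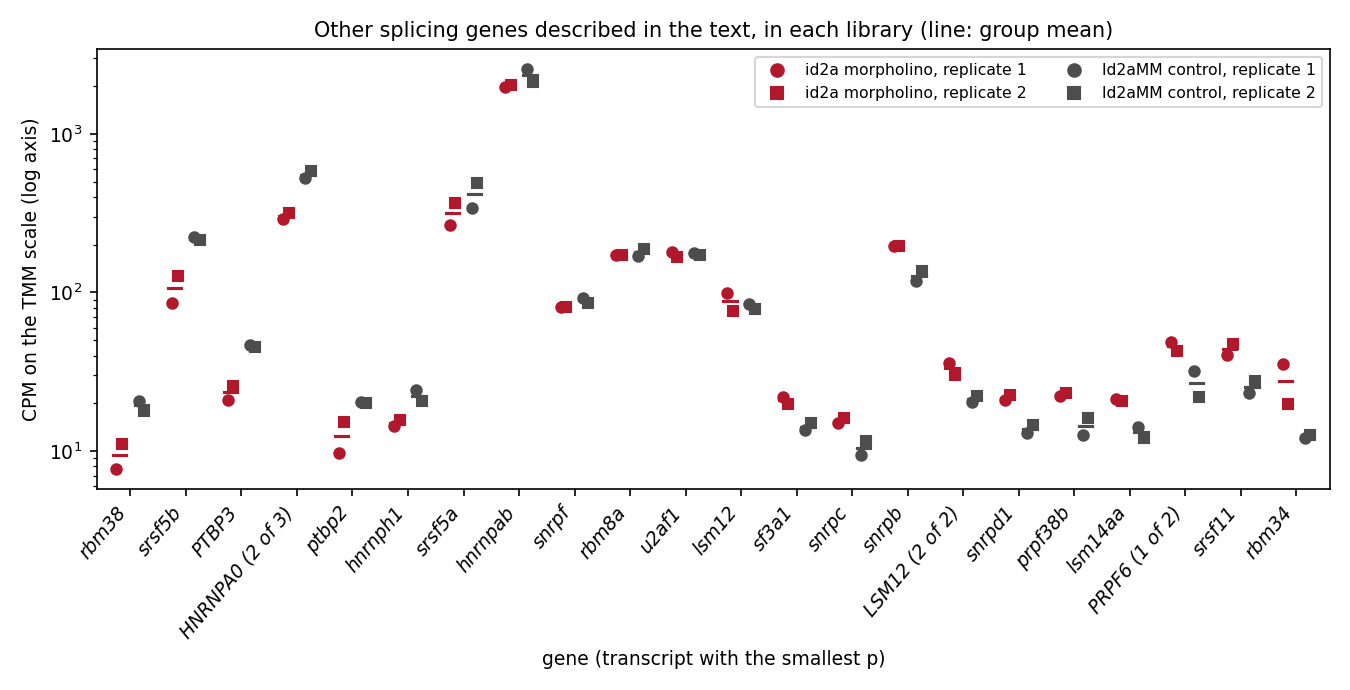
Level of the other splicing genes described, in each library (vertical log axis, CPM on the TMM scale), ordered by log2 fold change, with the id2a morpholino libraries left of the Id2aMM controls and a line at each group mean. rbm38, srsf5b, PTBP3 and HNRNPA0 (2 of 3) stand lowest relative to controls and rbm34 highest, and hnrnpab is the most abundant, at 1964 and 2027 CPM with the id2a morpholino.

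Most hnRNP genes had values below 0. These proteins coat nascent RNA, and several repress the exons they bind. Of 25 tested genes 1 fell (4%, against 5.70% of all genes), 0 rose (against 2.37%) and 24 did not pass. Values of 20 genes were below 0, and the median of all 25 was -0.17. Both id2a morpholino libraries were below both controls for 14 (56%, against 32.3% of all tested genes) and above both for 3 (12%, against 29.8%). HNRNPA0 (2 of 3) on chromosome 14 fell: it was at 288.6 and 318.8 CPM with the id2a morpholino, against 525.0 and 582.3 CPM in controls (log2 fold change -0.87 with SE 0.21, edgeR adjusted p = 0.0485). It passed in 0 of the 4 fits that left out a library, at -0.94 to -0.78. hnrnph1 was at 14.5 and 15.6 CPM with the id2a morpholino, against 24.2 and 20.6 CPM in controls and did not pass (log2 fold change -0.57 with SE 0.23, edgeR adjusted p = 0.156). hnrnpab, the most abundant splicing gene, was at 1964 and 2027 CPM with the id2a morpholino, against 2555 and 2122 CPM in controls (log2 fold change -0.23 with SE 0.22, edgeR adjusted p = 0.535). Per library, the median of all 25 hnRNP genes was -0.26 and -0.10 with the id2a morpholino, against 0.02 and -0.02 in controls, on the log2(CPM + 0.5) scale relative to the control mean.

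Polypyrimidine tract binding proteins repress exons, and in mammals a switch in neurons replaces Ptbp1, the form of progenitors and other cells, with Ptbp2. Of 5 genes 1 fell (20%, against 5.70% of all genes), 0 rose (against 2.37%) and 4 did not pass. PTBP3 on chromosome 10, whose mammalian homolog is best known from blood cells, was at 21.0 and 25.8 CPM with the id2a morpholino, against 46.7 and 45.4 CPM in controls (log2 fold change -0.97 with SE 0.23, edgeR adjusted p = 0.0441). It passed in 1 of the 4 fits that left out a library, at -1.13 to -0.81. ptbp2 on chromosome 2 was at 9.71 and 15.2 CPM with the id2a morpholino, against 20.4 and 19.97 CPM in controls. Its groups were separate, but it did not pass (log2 fold change -0.70 with SE 0.28, edgeR adjusted p = 0.151). The gene model PTBP2 (2 of 2) overlapped, at 14.3 and 16.4 RPKM with the id2a morpholino, against 19.0 and 15.5 RPKM in controls. RPKM here is reads of both mates per kilobase of transcript, scaled to library depth. At their most abundant transcripts, ptbp1a and ptbp1b had log2 fold changes of 0.33 and -0.0073, and neither passed.

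Of 37 tested RBM genes 0 rose (against 2.37% of all genes), 0 fell (against 5.70%) and 37 did not pass in edgeR. Before adjustment, at p under 0.05, 4 were higher (against 12.9% of all genes) and 1 lower (against 17.9%). DESeq2 called 2 higher (against 6.23% of all genes) and 1 lower (against 9.64%). The median was 0.0036. rbm38, whose mammalian homolog is a p53 target that binds the mRNAs of p53 and p21, was at 7.75 and 11.1 CPM with the id2a morpholino, against 20.8 and 18.0 CPM in controls (log2 fold change -1.04 with SE 0.27, edgeR adjusted p = 0.0564). rbm34, related to a yeast nucleolar protein, was at 35.3 and 19.7 CPM with the id2a morpholino, against 12.0 and 12.7 CPM in controls (log2 fold change 1.15 with SE 0.31, edgeR adjusted p = 0.0611). Both lay just outside the threshold, with separate groups, and both passed in DESeq2 (adjusted p = 0.0117 for rbm38 and 0.00608 for rbm34). rbm8a, a subunit of the exon junction complex and the most abundant RBM gene per length, had overlapping groups at 172.2 and 173.3 CPM with the id2a morpholino, against 170.4 and 187.9 CPM in controls (log2 fold change -0.05 with SE 0.20, edgeR adjusted p = 0.896).

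A pair of further RBM genes, picked after their values were seen, had values like rbm34. rbm19, needed for making ribosomes, was at 59.9 and 34.4 CPM with the id2a morpholino, against 27.4 and 19.2 CPM in controls (log2 fold change 1.02 with SE 0.32, edgeR adjusted p = 0.0891). rbm28, a nucleolar protein, was at 100.7 and 59.6 CPM with the id2a morpholino, against 52.1 and 42.1 CPM in controls (log2 fold change 0.77 with SE 0.29, edgeR adjusted p = 0.134). In rbm34, rbm19 and rbm28 alike, id2a morpholino replicate 1 was the highest library. Leaving out id2a morpholino replicate 2 therefore raised all 3 by construction, to log2 fold changes of 1.52, 1.37 and 1.10. Leaving out id2a morpholino replicate 1 lowered them to 0.70, 0.58 and 0.36. Leaving out either control library gave 0.62 to 1.32.

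Genes can be compared on the RPKM of both mates (reads per kilobase of transcript, scaled to library depth). On that scale the medians of the roles differed widely, but many of their ranges overlapped. Levels ran from 0.31 to 1053 among hnRNP genes and from 0.32 to 59.2 among the neuronal regulators. The median over genes of the level averaged over 4 libraries was 99.8 for hnRNP genes, 85.3 for SR genes, 55.7 for the Sm and LSm rings, 39.8 for the U1 and U2 particles and 24.2 for Prp genes. It was 15.5 for PTB genes, 13.2 for RBM genes, 10.02 for the other LSm genes and 3.35 for the neuronal regulators. hnrnpab had the highest level, 959 ± 32.4 with the id2a morpholino and 1147 ± 107 in controls (SD, n = 2 each). Among the neuronal regulators the order of mean levels was celf2 at 59.2, nova2 at 43.0, celf3 at 29.2 and rbfox2 at 21.4, with rbfox1 at 4.82 and celf5 at 2.35 far below. The order shifted with the group: celf3 averaged 14.4 with the id2a morpholino and 44.0 in controls, and nova2 35.3 with the id2a morpholino and 50.7 in controls. Thus celf3 was near nova2 in controls, within their spread, and below it in both id2a morpholino libraries, on the same scale per length.

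For genes with several annotated transcripts, the share of reads taken by the leading transcript was also followed, using the authors' estimated counts, which divide a read among its hits. This description was added after the data were seen and carries no test. Of 85 splicing genes with at least 100 such reads in every library, the share was lower in both id2a morpholino libraries than in both controls for 28 (32.9%) and higher for 10 (11.8%). Over all 5827 such genes the figures were 28.0% and 13.2%, so the splicing genes were near the background. Among 15 SR genes 7 were lower and 1 higher, and among 15 hnRNP genes 6 were lower and 1 higher. The median difference was -1.14 points for SR genes and -0.94 points for hnRNP genes, against -0.38 points over all such genes.

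**Figure D4:**
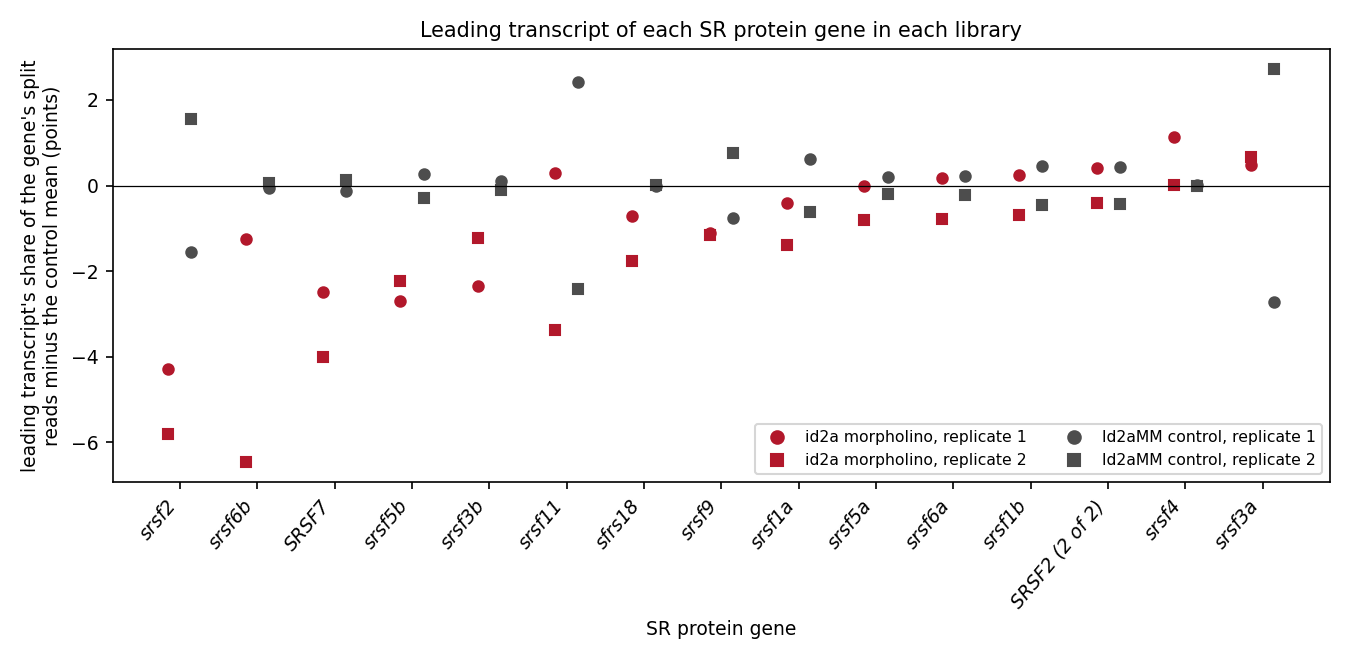
Share of each SR gene's split reads taken by its leading transcript in each library, as percentage points from the control mean (vertical axis), with the id2a morpholino libraries left of the Id2aMM controls for each gene. 13 of 15 genes have a lower mean share with the id2a morpholino, against 3579 of the 5827 genes followed. Among hnRNP genes, not drawn, it was 12 of 15. srsf2 is the furthest, at -5.05 points.

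The differences in share were small where they were seen. The leading srsf2 transcript took 50.7% and 49.2% of the gene's reads with the id2a morpholino, against 53.5% and 56.6% in controls. SRSF7 stood at 34.5% and 32.9% with the id2a morpholino, against 36.8% and 37.1% in controls. In the core, the share was lower in both id2a morpholino libraries for 8 of 23 genes (34.8%) and higher for 5 (21.7%). A lower mean was seen in 13 of 23, against 3579 of all 5827 such genes. The leading snrpc transcript took 81.9% and 80.7% with the id2a morpholino, against 86.5% and 88.1% in controls, and that of snrpa, another U1 protein, 54.5% and 53.7% with the id2a morpholino, against 58.6% and 61.2% in controls. On the other side, the leading transcript of sf3a3, a U2 protein, took 67.2% and 67.0% with the id2a morpholino, against 65.5% and 65.5% in controls. Among the regulators, 2 of 5 genes had a lower mean share and the median difference was 0.58 points, against -0.38 points over all such genes. celf2 stood at 66.5% and 65.4% with the id2a morpholino, against 69.2% and 73.0% in controls, and celf1 at 40.2% and 37.6% with the id2a morpholino, against 45.0% and 43.3% in controls. rbfox1 was the regulator whose share was higher in both, at a mean of 99.6% with the id2a morpholino and 97.9% in controls, and celf4 and rbfox1l overlapped. These examples were picked after their values were seen, and the shares depend on how reads common to transcripts were divided.

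Other genes of the pathway, listed by function rather than by these name stems were also followed. Of 98 tested, 2 rose (2.04%, against 2.37% of all genes), 4 fell (4.08%, against 5.70%) and 92 did not pass, so their calls were near the background. Among 49 further spliceosome genes 1 rose and 0 fell, at a median log2 fold change of 0.21: aqr, an RNA helicase of the catalytic spliceosome, was at 101.1 and 92.1 CPM with the id2a morpholino, against 49.4 and 50.8 CPM in controls (log2 fold change 0.95 with SE 0.21, edgeR adjusted p = 0.0386). All 6 SMN complex genes, whose products load Sm rings onto small nuclear RNAs, were above controls in both id2a morpholino libraries (against 29.8% of all genes), at a median of 0.78. None of the 6 passed in edgeR, 5 were higher at p under 0.05 before adjustment (against 12.9% of all genes) and DESeq2 called 3 higher (against 6.23%). gemin5, which recognises the small nuclear RNAs, was at 25.9 and 19.4 CPM with the id2a morpholino, against 10.8 and 11.9 CPM in controls (log2 fold change 0.99 with SE 0.25, edgeR adjusted p = 0.0537). Of 6 exon junction complex genes and 4 minor spliceosome genes none passed in edgeR, with medians of 0.26 and -0.19. Before adjustment, edgeR had 0 exon junction genes and 1 minor spliceosome gene at p under 0.05.

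Kinases that phosphorylate SR proteins moved in both directions: 1 of 6 rose (against 2.37% of all genes) and 1 fell (against 5.70%). Of 6, srpk1b rose, at 97.8 and 71.6 CPM with the id2a morpholino against 45.8 and 36.8 CPM in controls (log2 fold change 1.04 with SE 0.25, edgeR adjusted p = 0.0476). SRPK3 fell, at 3.82 and 3.93 CPM with the id2a morpholino, against 9.42 and 8.56 CPM in controls (log2 fold change -1.21 with SE 0.26, edgeR adjusted p = 0.0368). Among 20 other splicing regulators 2 fell (10%, against 5.70% of all genes) and 0 rose (against 2.37%). fus, an RNA-binding protein linked to motor neuron disease in humans, was at 57.2 and 78.2 CPM with the id2a morpholino, against 188.6 and 185.9 CPM in controls (log2 fold change -1.47 with SE 0.23, edgeR adjusted p = 0.0241). KHDRBS3, a STAR-family regulator, was at 3.41 and 3.21 CPM with the id2a morpholino, against 12.8 and 7.62 CPM in controls (log2 fold change -1.62 with SE 0.32, edgeR adjusted p = 0.0317). Of 7 neuronal RNA-binding genes 1 fell (14.3%, against 5.70% of all genes) and 0 rose (against 2.37%). It was elavl3, an early neuronal marker, at 23.0 and 36.1 CPM with the id2a morpholino, against 82.8 and 66.9 CPM in controls. Its log2 fold change was -1.34 (with SE 0.28, edgeR adjusted p = 0.0342).

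The authors' deposited table, made with DESeq, put 9 of 394 splicing transcripts (6 genes) lower and 3 (1 gene) higher at an adjusted p of 0.05. Over its whole list the authors' deposited table called 5.69% of transcripts lower and 3.20% higher. For comparison, edgeR called 4.97% of all tested transcripts lower and 2.06% higher. Of the 10 member transcripts called in edgeR, all lower, 7 were also called in the authors' deposited table. The authors' deposited table gives celf3 a log2 fold change of -1.57 (adjusted p = 7.8e-06), celf5 -2.02 (adjusted p = 4.28e-05) and rbfox2 -1.15 (adjusted p = 0.00294). rbm38 passed as lower there (log2 fold change -1.01, adjusted p = 0.0293 in the authors' deposited table) and srsf11 as higher (0.82 to 0.84), unlike in edgeR. PTBP3 (adjusted p = 0.0766) and rbfox1 (log2 fold change -2.47, adjusted p = 0.0989) did not pass in the authors' deposited table.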

How the data were processed

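Poly-A RNA of 4 retina libraries was compared, 2 per group. The names of the deposited files say that the authors used bowtie against Ensembl release 66 zebrafish cDNA, with no version or setting stated there. The deposited library tables hold whole-number counts of alignments per transcript, each hit counted in full (1.89 to 2.01 hits per read), per the file headers. Beside them the authors deposited estimated counts that divide each read among its hits. The authors' series tables hold a score that came out within 1 unit of 1000 times the RPKM of both mates for 99.4% to 99.9% of 43155 values, and it was used only for levels per length. The authors' deposited comparison gives log2 fold changes and adjusted p-values from DESeq, per the submitters' processing notes. Chromosomes are those of that table, and its unplaced scaffolds carry Zv9 names.

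Counts of 1 mate were tested per transcript in R 4.3.3 by the quasi-likelihood F-test of edgeR 4.0.16, after filterByExpr and TMM scaling and without a block. P-values were adjusted by Benjamini-Hochberg across all 37012 transcripts (20875 genes) that passed the filter, and the threshold was 0.05. The SE of a log2 fold change is its size divided by the root of the F statistic. A named gene is represented by its transcript with the smallest p, and by its most abundant one in medians and in counts of separated groups. Of the 150 genes, 92 have several transcripts, and member transcripts had a median of 2.39 hits per read, so values of transcripts and near-identical copies are uncertain. DESeq2 1.42.0, upper-quartile scaling, other filters, counts summed per gene, both mates, split reads, a replicate block and leaving out each library were tried as alternatives. The method was tested on simulated data.

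Named genes are every tested nova, rbfox and celf gene, every called member, and in each role the 2 with the smallest p and the most abundant per length. The values of 1 of these genes are not reported here. Members and lists were chosen with earlier results of these data known. The labels tie no replicate to a clutch or day, so p-values measure only the spread between these libraries.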

Additional observations from a re-analysis of the deposited data

How the results depend on the processing

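The 7 lower calls came to 3 with counts summed per gene (rbfox1, celf5 and rbfox2) and to 0 to 7 when a library was left out: 0 without control replicate 1, 1 without control replicate 2, 3 without id2a morpholino replicate 1 and 7 without id2a morpholino replicate 2, where HNRNPA0 (2 of 3) was lost and rbm38 gained. The count of higher splicing genes, 0 in the reported fit, was 3 with DESeq2, 2 without the expression filter, 3 at a threshold of 0.10 and 0 to 3 when a library was left out. With the replicate number as a block it was 2 (rbm34 and rbm19), beside 7 lower. Differences of replicate 1 minus replicate 2 were nearly uncorrelated between the groups (correlation -0.02 over transcripts). With 1 such difference per group, that cannot exclude a shared clutch or day, which the labels do not give. The neuronal median of -1.21 was -1.30 without the filter, -1.39 with split reads, -1.04 without genes named as one of several copies, -1.13 for genes averaging at least 2 CPM over both groups (a set that celf5 and CELF4 enter through their control levels, so it is no check of the fall), and -1.66 to -0.89 when a library was left out. The core median of 0.10 was 0.059 to 0.26 when a library was left out. Among the named genes, under the alternatives run, only values near 0 or resting on 1 library changed sign, none of them called. celf1 was at -0.010 with counts summed per gene. rbfox1l was at 0.017 with split reads and at -0.58 to 0.34 when a library was left out, and nova1 at -1.67 to 0.42. u2af1 was at 0.017 with DESeq2, 0.0073 without the filter, 0.058 with split reads and -0.049 to 0.050 when a library was left out. lsm12 was at -0.070 to 0.28 when a library was left out, and rbm8a at 0.017 with split reads and -0.098 to 0.022 when a library was left out. The cause of these shifts was not tested. Over all tested genes 494 were higher and 1189 lower in the reported fit, against 1301 and 2012 with DESeq2, 1115 and 2061 without the filter, 208 and 620 with counts summed per gene, 37 and 222 without control replicate 2 and 0 and 0 without control replicate 1. With 2 libraries per group, precision is limited by their number, and genes under about 2 CPM are the least certain.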
